A study of Mesocricetus auratus with 14 samples.

Results

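The cytosolic ribosomal protein genes of hamster liver were taken from the deposited expression table by gene symbol. Every symbol that began with Rpl or Rps followed by a number was used, together with Rpsa and Rplp0 to Rplp2, and the Rps6k kinases were left out. This took 27 of the 10023 genes with a symbol. Of the 27, 22 encode proteins of the cytosolic ribosome, 14 of the small subunit (among them Rps3, Rps4x, Rps7, Rps9, Rps13, Rps15, Rps15a, Rps16, Rps27, Rps28 and Rpsa) and 8 of the large subunit (Rpl3, Rpl5, Rpl10a, Rpl18, Rpl21, Rpl22, Rpl34 and Rpl36). A further 3 were paralogs of ribosomal protein genes, Rpl7l1, Rpl22l1 and Rps27l. The remaining 2 were Rps18-ps6, which carries the symbol of a pseudogene, and Rps19bp1, which is not a ribosomal protein: it encodes a protein that binds Rps19 and is known as an active regulator of the deacetylase SIRT1. Judged by symbol, the name of the group therefore held for 22 of the 27. Whether Rps18-ps6 encodes a ribosomal protein was not tested. A list of 79 ribosomal protein genes, 32 of the small and 47 of the large subunit, served as the frame, and 23 of them had a symbol in the table, the 22 above and Fau. Rps6, Rps19, Rps27a, Rpl10, Rpl11, Rpl13a, Rplp0, Rplp1, Rplp2 and Rack1 were not analysed here.

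Ribosomal proteins and ribosomal RNAs assemble in the nucleolus into a small subunit, which reads the messenger RNA, and a large subunit, which forms peptide bonds. Their messenger RNAs are abundant in all tissues, are short, and begin with a terminal oligopyrimidine (TOP) tract through which mTORC1, a nutrient-sensing kinase complex, controls their translation. In liver, which exports large amounts of plasma protein, much of the RNA of a cell is ribosomal. Transcript abundance, as measured here, does not report that translational control.

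RNA was sequenced from liver of golden hamsters (Mesocricetus auratus) in a control group and a group given DC371739, a code-named compound, with 7 samples in each. All 14 samples carried the label of a high-fat diet, so the comparison is of DC371739 against control on that diet. The sources used here do not give strain, age, sex, dose, route or duration. They do not state that each sample came from its own animal either, so a p-value reflects spread among the samples, which may be technical. The labelled tissue was checked against hepatocyte markers: 9 of 10 had a symbol, and together they took 115703 to 149627 CPM (counts scaled to library size) in control and 113454 to 135874 CPM in treated libraries.

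Libraries held 13672589 to 23948628 counts. Control replicates 6 and 7 together with treated replicate 7 stood apart, with 22152239 to 23948628 counts and a mitochondrial share of 12.6% to 14.4%, against 13672589 to 16710097 counts and 7.23% to 9.33% in the other 11. No label gives a batch or date for this division. Each comparison was made on all 14 libraries and again on the 11 shallower ones, 5 control and 6 treated. Each of the 22 genes had at least 822 counts in every library and at most 10360, so counting error was small beside the spread between libraries. In these bulk samples fewer cells of a type and less RNA per cell cannot be told apart.

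The 22 genes were all well expressed. By mean FPKM (fragments scaled by exon length and library size, mean ± SD over 14 libraries), Rps15, whose tail reaches the decoding site, was highest at 637 ± 93.0 FPKM. Rps7 at 508 ± 89.5 and Rpl18 at 506 ± 61.1 FPKM were also among the 5 highest, and differed from each other by less than their SDs. The median of the 22 was 339 FPKM, 369 FPKM for the small-subunit genes (186 to 637) and 294 FPKM for the large-subunit genes (57.9 to 506). The lowest were Rpl22, whose protein many cells can do without, at 57.9 ± 7.81 FPKM, and Rpl5, which with Rpl11 and the smallest ribosomal RNA forms a particle that can bind Mdm2, at 166 ± 25.4 FPKM. These 2 genes had the longest exon models of the 22, 2067 and 2026 bases, and FPKM divides by that length.

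**Figure D1:**
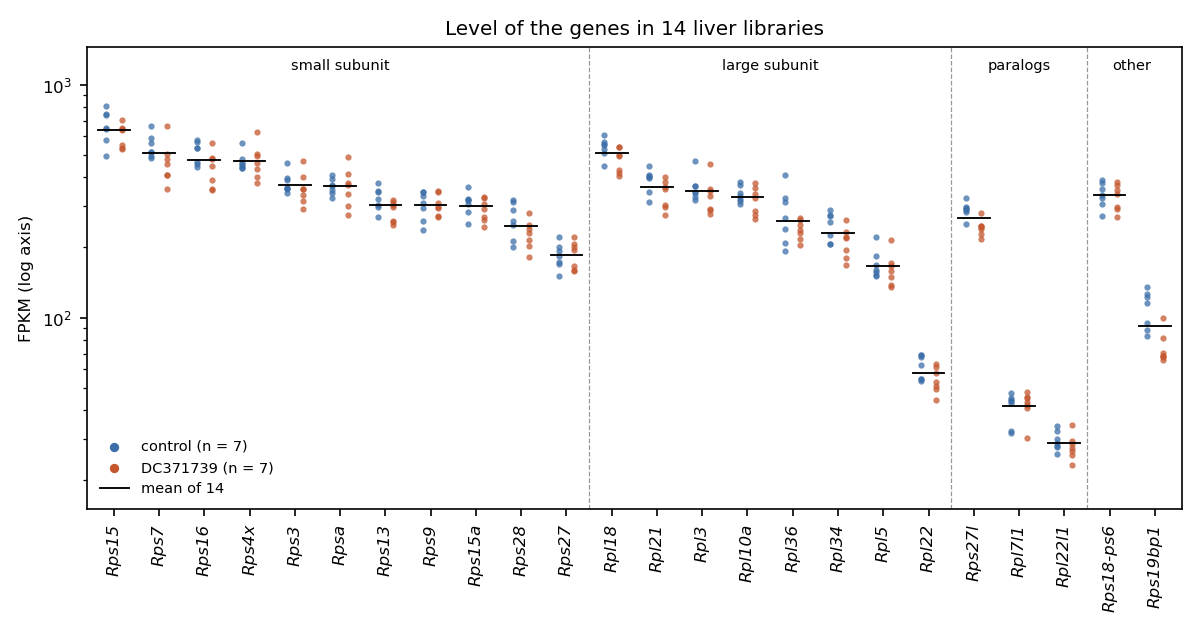
Level of each of 24 of the 27 genes in each library, in FPKM on a log axis, with control (n = 7) and DC371739 (n = 7) libraries in different colours and a line at the mean of 14. Rps15 was highest at 637 FPKM and Rpl22l1 lowest at 28.8 FPKM, and the groups overlapped for every gene drawn.

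Of the paralogs, Rps27l reached 267 ± 31.5 FPKM on a 249-base exon model, and its parent Rps27 186 FPKM on 460 bases. Before division by length the order was the other way, with mean CPM of 55.8 in control and 46.7 in treated libraries for Rps27l and 65.6 and 66.3 for Rps27. Rpl7l1 stood at 41.7 ± 5.75 and Rpl22l1 at 28.8 ± 3.16 FPKM. Rps18-ps6 had 334 ± 40.1 FPKM, a level within the range of the 22 genes. Its model has 5 exon blocks over 632 bases at KB708304.1:82125-87020. Rps19bp1 had 91.9 ± 24.2 FPKM. The 22 genes together summed to 8253 ± 667 FPKM in control (7283 to 9244) and 7586 ± 1050 FPKM in treated libraries (6377 to 9190), ranges that overlapped.

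Over all 14 libraries, no difference between treated and control passed the test for any of the 22 ribosomal protein genes (edgeR quasi-likelihood test, Benjamini-Hochberg adjusted p from 0.239 to 0.994). The test called 1 of the 27 genes, Rps19bp1, which was lower. Over all tested genes it called 225 of 12166, or 1.85%, with 1.24% higher and 0.608% lower. In the same edgeR test 1 of the 22 (Rpl34) and 3 of the 27 had an unadjusted p under 0.05, beside 2476 of the 12166 tested genes. Other tools called more genes in all. DESeq2 called 2 of the 27, Rps19bp1 and Rps27l, and 0 of the 22, beside 6.92% of all tested genes. Limma-voom with sample quality weights called 9 of the 27 and 7 of the 22, beside 22.4% of all tested genes. In the edgeR fit the estimates were small. The median log2 fold change of the 22 was -0.12, with a range from -0.24 to 0.02, and the median of all tested genes was -0.02. The 95% intervals of all 22 lay within a 1.5-fold change either way. Values were below 0 for 18 of the 22, against 53.4% of all tested genes and 57.9% of the 1933 tested genes at least as abundant as the lowest of the 22. The 22 genes moved together from library to library, as described further on, so their signs are not independent observations.

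**Figure D2:**
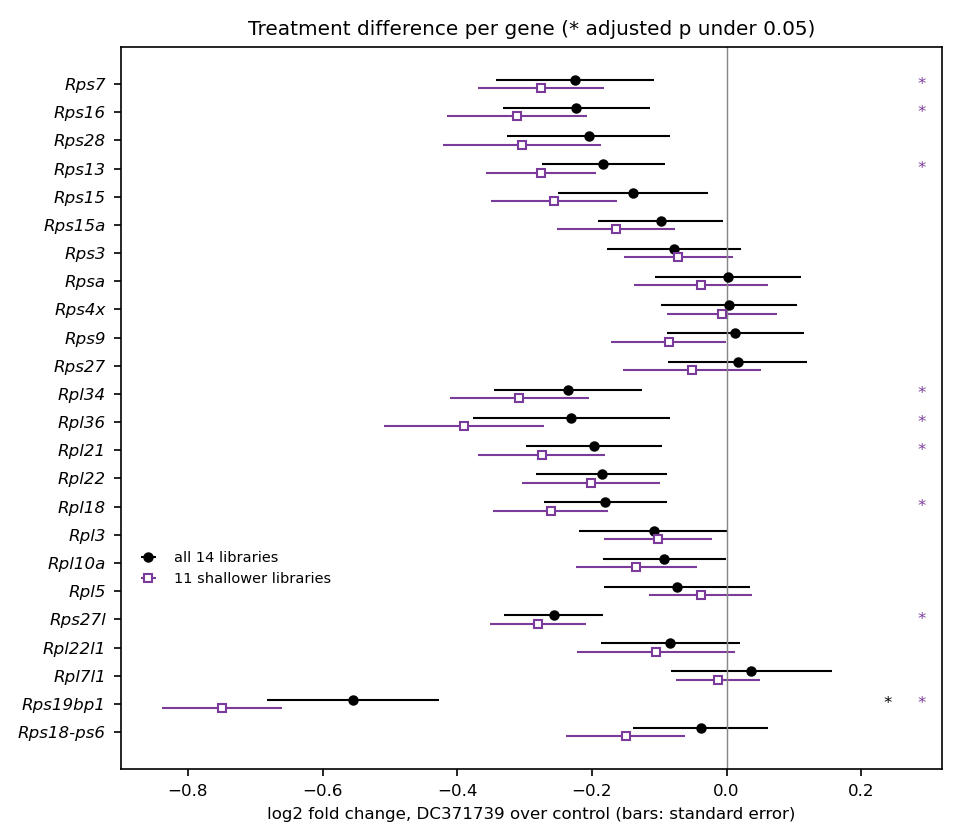
Log2 fold change of DC371739 over control for 24 of the 27 genes, over all 14 libraries and over the 11 shallower ones, with bars of 1 standard error and an asterisk where the adjusted p was under 0.05. Over 14 libraries the asterisk stands at Rps19bp1, and over 11 libraries at 9 genes, all on the lower side.

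Among the small-subunit genes the median log2 fold change was -0.09. Rps7, which outside the ribosome can bind Mdm2, had 264, 270, 278, 282, 307, 321 and 353 CPM in control and 194, 221, 225, 247, 262, 275 and 351 CPM in treated libraries. The groups overlapped, and the 351 CPM belonged to treated replicate 7, a deeper library. Its log2 fold change was -0.22 (SE 0.12, edgeR adjusted p = 0.291). Rps16, whose tail touches the transfer RNA in the peptidyl site, ranged from 190 to 253 CPM in control (median 228) and from 153 to 237 CPM in treated libraries (median 193), with a log2 fold change of -0.22 (SE 0.11, edgeR adjusted p = 0.264). Rps28, which lies near the exit of the messenger RNA channel, was among the 3 genes of largest spread between libraries (SD of log2 CPM 0.25), with 52.0 to 83.4 CPM in control and 47.2 to 73.6 CPM in treated libraries.

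The 4 genes with a positive value were all of the small subunit. Rps27 had a log2 fold change of 0.02, Rps9, at the messenger RNA entry, of 0.01, Rps4x of 0.0041 and Rpsa, also known as the laminin receptor, of 0.0022. Each was within 1 SE of 0, and the sign of each turned under 1 or more other ways of fitting the same counts. Rps4x ranged from 310 to 388 CPM in control (median 323) and from 268 to 432 CPM in treated libraries (median 326). Its medians were near each other, and both of its highest libraries, control replicate 6 and treated replicate 7, were deeper ones.

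All 8 large-subunit genes had negative values, with a median log2 fold change of -0.18. Rpl34 had 78.6, 79.6, 87.1, 98.4, 103, 106 and 111 CPM in control and 64.4, 68.5, 74.7, 83.6, 84.8, 88.8 and 97.9 CPM in treated libraries. The highest treated library lay within the control range, and 3 of 7 treated libraries lay below every control library. Its log2 fold change was -0.24 (SE 0.11, edgeR adjusted p = 0.239). Rpl36 was the most variable of the 22 (SD of log2 CPM 0.30), with 59.6 to 128 CPM in control and 64.3 to 84.1 CPM in treated libraries. The control range enclosed the treated one, and the log2 fold change of -0.23 had an SE of 0.15 (edgeR adjusted p = 0.389). Rpl3, which reaches the peptidyl transferase centre, had a log2 fold change of -0.11 (edgeR adjusted p = 0.622) and Rpl5 of -0.07 (edgeR adjusted p = 0.751).

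Over the 11 shallower libraries all 22 genes had negative values, against 49.3% of the 12249 genes tested there. The median log2 fold change of the 22 was -0.19, with a range from -0.39 to -0.0071, and that of all genes was 0.01. In this fit 9 of the 27 were called, all lower, beside 21.5% of all tested genes (11% higher and 10.5% lower). They were Rps19bp1, Rps27l and 7 of the 22 ribosomal protein genes: Rps7, Rps13 and Rps16 of the small subunit, and Rpl18, Rpl21, Rpl34 and Rpl36 of the large. Their edgeR adjusted p lay between 0.0282 for Rps13 and 0.0491 for Rpl21. The largest change among them was that of Rpl36, with a log2 fold change of -0.39 (SE 0.12, edgeR adjusted p = 0.0315), and the smallest that of Rpl18, at -0.26 (SE 0.09, edgeR adjusted p = 0.0408).

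These 7 calls were narrow and depended on which libraries were included. No ribosomal protein gene of the 22 was called without control replicate 2, 3 or 5, or without treated replicate 3 or 6. Without treated replicate 5 there was 1 call (Rps13), without treated replicate 4 there were 2 (Rps13 and Rpl36), and without control replicate 1 there were 5. Without any of control replicate 4 and treated replicates 1 and 2 there were 8 or 9. With upper-quartile scaling the 11 libraries gave 2 calls among the 22 (Rps13 and Rpl36). In none of the 22 did the 11 libraries separate by group, whereas 5.29% of all tested genes had every treated library below every control library there, and 4.09% had every treated library above. With all 14 libraries and a term for the deeper class, 0 of the 22 were called, beside 12.3% of all genes (5.62% higher, 6.7% lower), and the median log2 fold change was -0.12. In that edgeR fit 3 of the 22 and 3830 of the 12166 tested genes had an unadjusted p under 0.05.

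**Figure D3:**
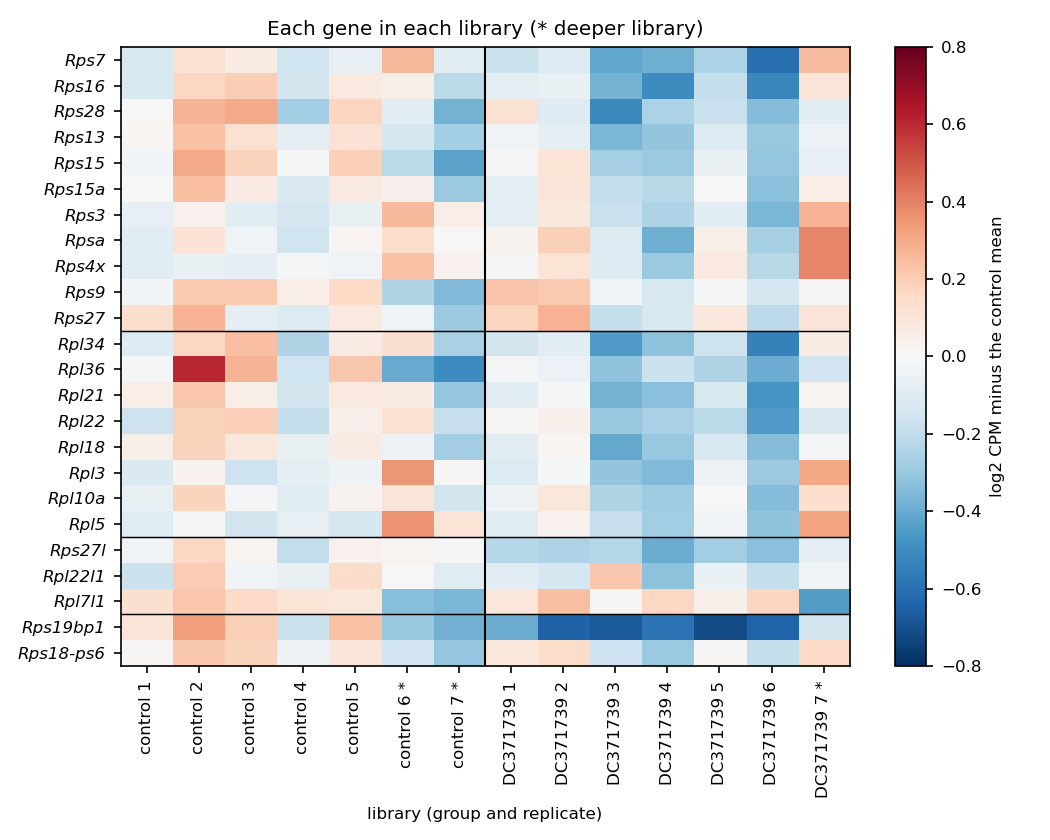
Log2 CPM of 24 of the 27 genes in each library minus the mean of the control libraries, with an asterisk at the 3 deeper libraries. Treated replicates 3, 4 and 6 were below the control mean for all 22 ribosomal protein genes, while treated replicates 2 and 7 had a median above it.

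Treated libraries differed among themselves. As the median of the 22 genes against the control mean, treated replicates 3, 4 and 6 stood at -0.28, -0.29 and -0.34 on the log2 scale, and in each of them 0 of the 22 genes were above the control mean. Treated replicates 1, 2 and 5 stood at -0.04, 0.03 and -0.07 and treated replicate 7 at 0.10. Treated replicate 6 held the lowest value of all 14 libraries for 12 of the 22 genes. Among controls, replicate 2 was highest at 0.18, with the highest value of its group for 10 genes, and replicate 7 lowest at -0.20, with the lowest value of its group for 14. The median of all tested genes departed from the control mean by up to 0.014 in any library. Library scaling was computed from those same genes and draws their median toward 0, so it is not a separate check on the 22.

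The 22 genes rose and fell together. With group means removed, the Pearson correlation of each gene's log2 CPM with the median of the others over 14 libraries ranged from 0.53 (Rpl5) to 0.96 (Rpl10a, of the mobile stalk of the large subunit), with a median of 0.83. Over the 11 shallower libraries the range was 0.74 to 0.98, with a median of 0.93. The points share library and scaling, and no test was made. The same measure was 0.86 for Rps18-ps6, 0.73 for Rps27l, 0.62 for Rps19bp1, 0.35 for Rpl22l1 and -0.08 for Rpl7l1. Genes outside the group differed as widely: it was 0.91 for Tpt1 and 0.89 for Eef1b2, both TOP messenger RNAs, 0.84 for Fau, 0.24 for Eef1a1 and -0.16 for Eef2.

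Between the 3 deeper libraries and the other 11, the 22 genes did not move one way. With the group in the model, 12 were higher and 10 lower in the deeper libraries, with log2 differences from -0.37 for Rpl36 to 0.38 for Rpl5 and a median of 0.04. Rpl3 was higher by 0.35, Rps7 by 0.30, Rps3, at the messenger RNA entry, by 0.30 and Rps4x by 0.29, while Rps9 had -0.26 and Rps15 -0.24. Across the 22 genes the difference followed exon length (Pearson r = 0.64, Spearman rho = 0.69). Across all 12166 tested genes it did not (r = -0.04, rho = -0.06). These are correlations across genes, which are not independent replicates.

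**Figure D4:**
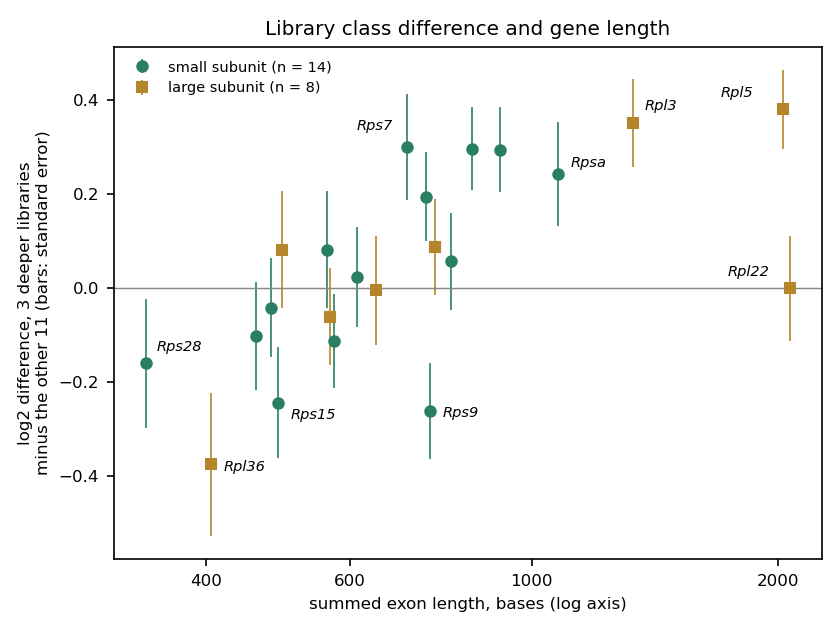
Log2 difference of the 3 deeper libraries minus the other 11, with bars of 1 standard error, against summed exon length in bases on a log axis, for the 22 ribosomal protein genes. Rpl36, with a 406-base model, lies at -0.37 and Rpl5, with 2026 bases, at 0.38. Rpl22, with the longest model at 2067 bases, lies at -0.00082.

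The treatment estimate was also read by exon length. Tested genes with models longer than 500 and up to 800 bases had a median log2 fold change of -0.11 (943 genes) over 14 libraries, beside -0.17 for the 10 ribosomal protein genes of that length. Genes of up to 500 bases had -0.08 (714 genes), beside -0.17 for 6 ribosomal protein genes. Over the 11 shallower libraries the pairs were -0.12 against -0.24 and -0.05 against -0.28. In models longer than 800 and up to 1200 bases the order was the other way: 1433 genes had -0.08 and 3 ribosomal protein genes 0.0022 over 14 libraries, and over the 11 libraries the values were -0.06 and -0.04. In the longer classes there were 1 ribosomal protein gene of up to 2000 bases (-0.11, against -0.04 for 3011 genes over 14 libraries) and 2 of up to 3000 bases (-0.13, against -0.01 for 2601 genes). Across the 22 genes the Pearson correlation of the treatment log2 fold change with log2 exon length was 0.29 over 14 libraries and 0.55 over 11. The part of length in the treatment estimates was not tested.

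Rps19bp1 (ENSMAUG00000012429, KB708136.1:2522871-2525767) was the member of the 27 that changed over all 14 libraries. Its CPM was 73.1, 86.1, 77.8, 60.3, 80.3, 55.1 and 52.2 in control replicates 1 to 7 and 51.8, 43.5, 42.7, 45.2, 41.4, 43.7 and 61.6 in treated replicates 1 to 7. The means were 69.3 ± 13.3 and 47.1 ± 7.20 CPM (SD, n = 7 each). Both deeper controls were the lowest of their group and the deeper treated library the highest of its group, so the groups overlapped over 14 libraries and separated over 11. Of all tested genes, 0.403% had every treated library below every control library over 14 libraries, and 0 of the 27 did so. Over the 11 libraries 5.29% of all tested genes did so, and 2 of the 27, Rps19bp1 and Rps27l. The log2 fold change was -0.55 (SE 0.13, edgeR adjusted p = 0.0394), a fall of 31.9%, and over the 11 shallower libraries -0.75 (SE 0.09, edgeR adjusted p = 0.000429), a fall of 40.5%.

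The call of Rps19bp1 over 14 libraries was narrow. It was lost in 10 of 14 fits that left out 1 library, those without control replicate 1, 2, 3 or 5 or any of treated replicates 1 to 6, with edgeR adjusted p from 0.0524 to 0.0941. It was also lost with no scaling factors (edgeR adjusted p = 0.0606) and with a term for replicate number (edgeR adjusted p = 0.0893). Over the 11 libraries it was called in each of 14 fits with another scaling or 1 library fewer (edgeR adjusted p of at most 0.00218). With the class term its log2 fold change was -0.56 (edgeR adjusted p = 0.0124). In the authors' deposited table Rps19bp1 had an adjusted p of 0.0371, the 1 value under 0.05 among the 27. Rpl3 lies 190570 bases away on the same scaffold, with the log2 fold change of -0.11 given above.

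**Figure D5:**
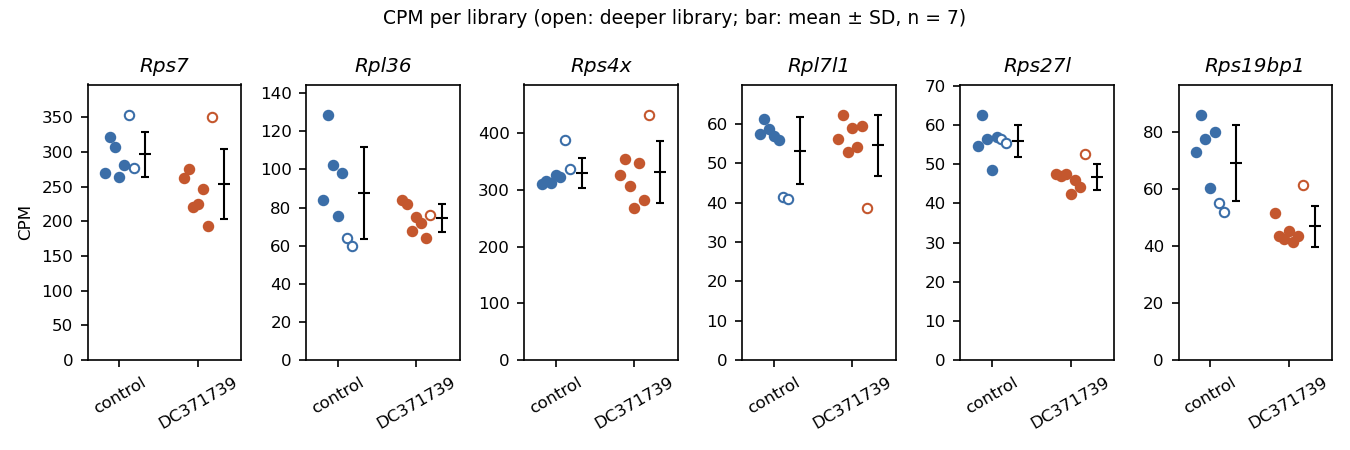
CPM per library for Rps7, Rpl36, Rps4x, Rpl7l1, Rps27l and Rps19bp1, with open points for the 3 deeper libraries and bars for the mean ± SD (n = 7). For Rps19bp1 and Rps27l the groups overlap with the open points and do not overlap without them. Without those libraries 5.29% of all tested genes had every treated library below every control library.

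Rps27l, a p53-responsive paralog of Rps27 (KB708182.1:4815903-4818619), had 54.5, 62.5, 56.3, 48.6, 57.0, 56.5 and 55.3 CPM in control replicates 1 to 7 and 47.4, 47.0, 47.5, 42.3, 45.9, 44.1 and 52.6 CPM in treated replicates 1 to 7. All 7 treated libraries lay below the control median, and treated replicate 7 alone lay above the lowest control. The means were 55.8 ± 4.10 and 46.7 ± 3.25 CPM (SD, n = 7 each), with a log2 fold change of -0.26 (SE 0.07, edgeR adjusted p = 0.0714), which missed the threshold. Rps27l passed it with the class term (edgeR adjusted p = 0.0218), without treated replicate 7 (edgeR adjusted p = 0.0255) and over the 11 libraries (log2 fold change -0.28, edgeR adjusted p = 0.0138). Over the 11 libraries it was called in each of 14 fits with another scaling or 1 library fewer, with an edgeR adjusted p of at most 0.0382. Its parent Rps27 had the 0.02 given above, and the difference between the paralogs was not tested.

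The other paralogs gave no call. Rpl7l1 had 40.8, 41.5, 56.0, 56.8, 57.5, 58.6 and 61.2 CPM in control and 38.5, 52.9, 54.0, 56.1, 58.9, 59.4 and 62.2 CPM in treated libraries. The 3 lowest values were those of the 3 deeper libraries, which differed from the other 11 by -0.52 on the log2 scale (SE 0.07). Its treatment log2 fold change was 0.04 (SE 0.12, edgeR adjusted p = 0.895). Its exons overlap the opposite-strand gene 2310039H08Rik, and the sources used here do not give the strand setting of the counting. Rpl22l1, at 6.83 to 9.997 CPM, had a log2 fold change of -0.08 (edgeR adjusted p = 0.693).

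Genes that act beside the ribosomal proteins were read as lists. Fau, the ribosomal protein gene that the naming rule does not take, had a log2 fold change of -0.20 (SE 0.10, edgeR adjusted p = 0.284). Of 11 other TOP genes, 0 were called, beside 1.85% of all tested genes, and the median log2 fold change was -0.07. Tpt1 had 1274 ± 135 CPM in control and 1044 ± 128 CPM in treated libraries (log2 fold change -0.29, edgeR adjusted p = 0.111), Eef1b2 had a log2 fold change of -0.23 and Eif4b, a helicase cofactor, of 0.40 (edgeR adjusted p = 0.0512). Eef1a1, the elongation factor that brings transfer RNA, had 3817 ± 870 and 3789 ± 642 CPM. Over the 11 libraries 2 of the 11 TOP genes were higher and 2 lower, beside 11% and 10.5% of all tested genes. Eif4b was among the higher ones there (log2 fold change 0.54, edgeR adjusted p = 0.00085). The lower ones were Tpt1 at -0.36 (edgeR adjusted p = 0.0131) and Eef1b2 at -0.31 (edgeR adjusted p = 0.0165).

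Of 21 translation factors, 54 ribosome biogenesis genes and 28 genes of RNA polymerases I and III, 0 were called over 14 libraries. Of all tested genes 1.85% were called there. In the same order the median log2 fold changes were -0.05, -0.13 and -0.05. Among the biogenesis genes 43 of 54 had negative values, against 53.4% of all tested genes. Ebna1bp2 and Rpf2, which act in large-subunit assembly, had -0.30 and -0.33 (edgeR adjusted p = 0.0608 and 0.0779). Gnl3l, a nucleolar GTPase, had 0.53 (edgeR adjusted p = 0.0820). Over the 11 libraries 4 of the 54 were higher and 8 lower, as were 2 and 1 of the 21 translation factors and 2 and 3 of the 28 polymerase genes, beside 11% higher and 10.5% lower among all tested genes. Gnl3l was among the higher ones there (log2 fold change 0.79, edgeR adjusted p = 0.00133), as was the helicase cofactor Eif4h (0.50, edgeR adjusted p = 0.00457). Eif4g1, the scaffold of the cap-binding complex, had a log2 fold change of -0.45 (edgeR adjusted p = 0.0709) over 14 libraries, Eif4h of 0.51 (edgeR adjusted p = 0.145), Polr1h, a subunit of polymerase I, of -0.32 and Gtf3a, a factor for the smallest ribosomal RNA, of -0.29. None of these passed the test over 14 libraries. Among the genes called lower over the 11 libraries were Eif4g1 (-0.63, edgeR adjusted p = 0.00085) and Ebna1bp2 (-0.37, edgeR adjusted p = 0.00536). Rpf2 (-0.32, edgeR adjusted p = 0.0363), Gtf3a (-0.42, edgeR adjusted p = 0.0109) and Polr1h (-0.37, edgeR adjusted p = 0.0457) were also lower there.

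Of 25 genes of mTORC1 and of ribosome surveillance, 1 was higher and 1 lower over 14 libraries, beside 1.24% and 0.608% of all tested genes. Rptor, the scaffold of mTORC1, was 10.01 ± 1.76 CPM in control and 16.3 ± 3.89 CPM in treated libraries (log2 fold change 0.70, SE 0.17, edgeR adjusted p = 0.0467). Pelo, which frees stalled ribosomes, was 11.98 ± 2.71 and 7.68 ± 1.10 CPM (log2 fold change -0.64, SE 0.15, edgeR adjusted p = 0.0405). Leaving out 1 library lost the call of each in 11 of 14 fits. Pelo kept it without control replicate 6 or 7 or treated replicate 7 and otherwise had an edgeR adjusted p of 0.0517 to 0.0890. Rptor kept it without control replicate 4 or 7 or treated replicate 7 and otherwise had 0.0586 to 0.108. With the class term both were called (edgeR adjusted p = 0.0205 for Rptor and 0.00577 for Pelo). Over the 11 libraries 5 of the 25 were higher and 3 lower, beside 11% and 10.5% of all tested genes. Rptor was among the higher ones there (log2 fold change 0.80, edgeR adjusted p = 0.00114). Pelo was among the lower ones (log2 fold change -0.76, edgeR adjusted p = 0.00160).

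The 66 mitochondrial ribosomal protein genes, which encode a separate ribosome, had a lower median than the cytosolic genes. Of them 63 had negative values, against 53.4% of all tested genes, with a median log2 fold change of -0.22. Over 14 libraries 0 were called, beside 1.85% of all tested genes. Mrpl58, a release factor of that ribosome, had -0.40 (edgeR adjusted p = 0.0565) and Mrpl53 had -0.33 (edgeR adjusted p = 0.0608). Over the 11 shallower libraries 29 of the 66 were lower and 0 higher, beside 10.5% and 11% of all tested genes. In treated replicates 1 to 7 the mitochondrial ribosomal protein medians against the control mean were -0.09, -0.22, -0.34, -0.14, -0.23, -0.33 and -0.0066. Replicates 3 and 6 were low for both lists, replicates 2 and 5 were low for the mitochondrial list with cytosolic medians of 0.03 and -0.07, and replicate 4 was lower for the cytosolic list. The difference between the cytosolic and mitochondrial lists was not tested.

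Markers of other liver cells were read beside these results. The summed level of 11 macrophage markers was 667 to 1021 CPM in control and 749 to 1178 CPM in treated libraries, and 2 of the 11, Ctss and Mpeg1, were higher over 14 libraries and 5 over the 11 shallower ones, beside 1.24% and 11% of all tested genes. The 8 stellate cell markers summed to 214 to 344 and 282 to 470 CPM, the 6 endothelial markers to 148 to 224 and 173 to 243 CPM, and the 8 lymphocyte markers to 11.9 to 21.1 and 16.1 to 31.8 CPM. The 3 neutrophil markers summed to 5.84 to 9.93 and 8.74 to 14.9 CPM, the 4 cholangiocyte markers to 10.7 to 20.4 and 12.3 to 30.6 CPM, and the erythroid marker Alas2 stood at 7.20 to 32.6 and 7.66 to 28.1 CPM. Over the 11 shallower libraries 2 of the 8 lymphocyte, 1 of the 3 neutrophil, 2 of the 6 endothelial and 1 of the 8 stellate cell markers were higher, beside the same 11%, and 0 of these lists' markers were lower. All the ranges of sums overlapped and no marker was at 0 in any library. The part of cell composition in the ribosomal protein values was not tested.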

How the data were processed

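Counts per Ensembl gene, with exon coordinates on scaffolds and a summed exon length, were deposited by the authors for 14 libraries. The authors also deposited FPKM values for 10023 genes with a symbol, with their own log2 fold changes, p-values and adjusted p-values. The authors used featureCounts 2.0.0, HISAT2 2.2.1 and edgeR, per the submitters' processing notes. The sources used here do not give the build, the strand setting or the handling of reads that map to several places, so reads of ribosomal protein genes and of their processed pseudogenes cannot be told apart. Per the labels' protocols, 2 library kits are named for every sample. From the values, each deposited FPKM equals the count divided by exon length and 1 constant per library (largest relative deviation 1.3e-07).

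Counts were tested with edgeR 4.0.16 (R 4.3.3) by the robust quasi-likelihood test, with TMM scaling, filterByExpr (minimum count 10) and Benjamini-Hochberg adjustment over all 12166 genes kept, and an adjusted p under 0.05 was called. All 27 genes passed the filter. CPM used TMM-scaled totals, and log2 CPM a prior count of 2. Alternatives were other scalings and filters, DESeq2 1.42.0, limma 3.58.1 with voom or on log2 FPKM, a replicate block, a library class term, the 11 shallower libraries and each library left out. Further scalings and omissions within the 11 libraries were added after seeing the data. The edgeR test of treated against control was run on simulated counts, drawn independently for each gene and without a deeper library class. The other tools, the class term and the fit over 11 libraries were not tested in this way. Within groups no pair of libraries had duplicate counts: over 42 pairs chi-square divided by its degrees of freedom was at least 11.2. Pairs across groups are not covered, and the measure cannot tell whether libraries came from the same animal. Whether equal replicate numbers pair the samples was not settled. The correlation of deviations ranged from -0.13 to 0.55 and was over 0.1 in 2 of 7 pairs. The highest was that of control and treated replicate 7, both deeper libraries. A low correlation cannot exclude a shared origin or handling.

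The members and gene lists were chosen with earlier results of these data known. Named genes were the members with set names (such as Rpsa, Rpl3, Rpl5 and the paralogs), those called, the 5 largest rises and falls, the 5 highest and lowest levels, the 3 of largest spread and, from each list, examples among the 3 of smallest p. Outside that rule, Rps3, Rps13, Rps16, Rpl10a, Rpl21, Eef1a1, Eef2, Ctss, Mpeg1 and 2310039H08Rik were named after their values were seen. Some genes of the group enter the counts and medians but are not reported here by name.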

Additional observations from a re-analysis of the deposited data

Results flagged for a closer look

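In 7 of 100 groups of 7 values checked, 1 library lay far from the other 6 of its group by Dixon's criterion, which chance alone meets in about 1 of 20 groups. All 7 were values of the deeper libraries. In control replicate 6, Rpl3 had 471 CPM (328 to 375 in the others), Rps4x had 388 CPM (310 to 337) and Fau had 248 CPM (192 to 213). In treated replicate 7, Eef1a1 had 5147 CPM (3287 to 3880), while Rpl7l1 had 38.5 CPM (52.9 to 62.2), Eif4h had 23.6 CPM (44.9 to 59.1) and Rptor had 7.93 CPM (15.8 to 19.1). The part of the library class in these values was not tested.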

How the results depend on the processing

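The 225 genes called over all 14 libraries (151 higher, 74 lower) became 842 with DESeq2 (509 and 333), 2727 with limma-voom (1406 and 1321), 2635 over the 11 shallower libraries, 1499 with the class term, and 25 to 1069 with 1 library left out. The split was 223 higher and 65 lower with upper-quartile scaling, and 124 and 36 with no scaling factors. Of the 27, 1 was called, against 0 with no scaling factors, 2 with DESeq2, 9 with limma-voom (7 of the 22), 2 with the class term, 9 over the 11 libraries, and 0 to 2 with 1 library left out. The replicate block gave 8 genes (6 higher, 2 lower), 0 of the 27 and a median of -0.12. Whether the numbers pair the samples was not settled, and 1 of 7 controls correlated best with its own number. The median of the 27, -0.11, ranged from -0.17 to -0.08 over all settings. Over the 11 libraries, leaving 1 out gave 1624 to 2913 genes, 2 to 11 of the 27 and a median of -0.21 to -0.13, and upper-quartile scaling gave 4 of the 27. The cause of these differences was not tested.

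Signs turned only for values near 0 that were not called. Eef1a1 had 0.013 with upper-quartile scaling, 0.026 with none, 0.084 with limma-voom, 0.0035 in each FPKM fit, 0.0042 with the block, 0.086 with the class term and 0.11 over the 11 libraries. Rpl7l1 had -0.0013 with limma-voom, -0.034 with the class term and -0.013 over the 11 libraries. Rps9 had -0.063, -0.011 and -0.086 in the same order. Rps27 had -0.020 with limma-voom and -0.051 over the 11 libraries. Rpsa had -0.016 with limma-voom, -0.015 in the FPKM fits, -0.016 with the block and -0.038 over the 11 libraries. Rps4x had -0.0071 or -0.0072 in the FPKM fits, -0.0079 with the block and -0.0071 over the 11 libraries. With 1 library left out, Rps4x ranged from -0.073 to 0.051, Rpsa from -0.076 to 0.058, Rps27 from -0.031 to 0.066, Rps9 from -0.038 to 0.047, Rpl7l1 from -0.017 to 0.11, Eef1a1 from -0.10 to 0.097 and Rps18-ps6 from -0.083 to 0.0017. Each of the 22 genes had at least 822 counts in every library, so depth limited these values less than the spread between libraries.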
